A study of Mus musculus with 8 samples.

Results

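Binding of the transcription factor OTX2 was examined around 4 genes of the developing cortex, Emx2, Emx1, Lhx2 and Fezf2, in chromatin of the subpallium, the ventral part of the telencephalon, while the genes themselves are known for their roles in the dorsal part. A peak belonged to a locus when its centre lay within 200 kb of a fixed mm9 gene position, chr19:59535000 for Emx2, chr6:85140000 for Emx1, chr2:38210000 for Lhx2 and chr14:13175000 for Fezf2. These 4 windows held 55 of the 26317 peaks in 8 deposited lists, of which 53 came from OTX2 libraries and 2 from control libraries. Peaks were assigned to the loci by position alone, while the 4 genes were picked with earlier results of these data known.

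The tissue was septum with medial and lateral ganglionic eminence, microdissected from wildtype CD-1 embryos at E12.5 and pooled over several embryos, so 1 library averages over embryos and over cell types. The chromatin was precipitated with an antibody against OTX2 (3 libraries) or with goat IgG (2 libraries, replicates 1 and 2), or was sequenced as input with no antibody (3 libraries). The OTX2 lists held 1848, 1298 and 22325 peaks in replicates 1, 2 and 3, and the control lists held between 138 and 235. Each line of a list gave a position and a rank, with no read count, height or p-value, so read depth is unknown and a rank is only an order within its own list. Both lists of the third experiment carry track names with a tag that the other 6 lack, and the OTX2 peaks of replicate 3 were wider than those of the other OTX2 lists, so values from replicates 1 and 2 alone are given beside the main ones. Peak lists hold no expression, and the dissected tissue was not checked against marker genes.

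Emx2 and Emx1 encode related homeodomain factors of the dorsal telencephalon, and Emx2 is known for setting area identity in the cortex. Lhx2, a LIM-homeodomain factor, is known as a selector gene that keeps cortical progenitors from taking the fate of the cortical hem. Fezf2, a zinc finger repressor, is known for specifying the deep-layer neurons that project below the cortex. OTX2 belongs to the bicoid-like class of homeodomain proteins, whose known preferred site is TAATCC. It acts early in forebrain and midbrain formation, and later persists in restricted domains of the telencephalon. In the GRCm38 gene table, Emx2 lies between Pdzd8 and Rab11fip2, Emx1 between Spr and Sfxn5, Lhx2 between Dennd1a and Nek6, and Fezf2 between 3830406C13Rik and Cadps, counting protein-coding genes.

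The sequence before the start of 3 of the genes is shown because OTX2 peaks came within 1 kb of these 3 gene positions in replicate 3 and because the genes differ in the homeodomain core TAAT. These peaks were in no other list and were ranked 11054 at Fezf2, 15606 at Emx2 and 18516 at Emx1, of 22325. The gene positions are rounded and were not matched to gene starts, so these are not called promoter peaks. The sequences are the 250 bases before the RefSeq gene start in GRCm38.p6, read 5′ to 3′ on the gene's strand, and capitals mark TAAT on either strand, with the C that follows it where the longer TAATC is present.
Fezf2 (chr14:12345866-12346115, minus strand): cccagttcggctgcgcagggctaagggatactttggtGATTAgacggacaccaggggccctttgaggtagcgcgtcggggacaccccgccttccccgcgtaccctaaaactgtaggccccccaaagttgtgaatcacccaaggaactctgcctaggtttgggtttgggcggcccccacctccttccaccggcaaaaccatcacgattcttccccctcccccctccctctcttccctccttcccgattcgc
Emx2 (chr19:59458440-59458689, plus strand): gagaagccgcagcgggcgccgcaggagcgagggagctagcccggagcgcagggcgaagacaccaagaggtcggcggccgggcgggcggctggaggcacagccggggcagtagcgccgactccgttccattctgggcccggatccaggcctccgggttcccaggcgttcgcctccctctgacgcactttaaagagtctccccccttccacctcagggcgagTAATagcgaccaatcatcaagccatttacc
Emx1 (chr6:85187681-85187930, plus strand): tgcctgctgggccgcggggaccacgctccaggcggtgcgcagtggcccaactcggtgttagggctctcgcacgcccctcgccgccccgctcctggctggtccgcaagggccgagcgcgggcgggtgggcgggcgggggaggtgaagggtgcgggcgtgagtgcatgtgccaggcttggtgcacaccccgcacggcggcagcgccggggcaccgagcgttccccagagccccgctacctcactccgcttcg
All 4 genes matched the promoter table, Lhx2 with 2 starts. TAATCC, searched on both strands, was in none of these 5 promoters, and 6.3% of the 32851 promoters in the table hold it in the same 250 bases. TAATC, which overlaps TAATCC, was present once in the Fezf2 promoter and in no other of the 5, against 19.8% of all promoters. TAAT, which both longer motifs contain, was present once each in the Fezf2 promoter, 212 bases before the start, and in the Emx2 promoter, 30 bases before it, against 54.9% of all promoters. The Emx1 promoter and both Lhx2 promoters held none. The 5 promoters were rich in G and C, at 61.2% for Fezf2, 67.2% for Emx2, 75.6% for Emx1 and 72.8% and 68.4% for the 2 starts of Lhx2, against a median of 52.4%. The peaks carry mm9 coordinates, so which of them cover these bases was not determined, and no base sequence of a peak was read here.

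OTX2 peaks were found at all 4 loci, but only 3 of the loci held peaks in more than 1 OTX2 list. Emx2 held 2, 1 and 11 peaks in OTX2 replicates 1, 2 and 3, Lhx2 held 3, 3 and 13, Fezf2 held 3, 2 and 11, and Emx1 held 0, 0 and 4. Over the 4 windows the OTX2 lists gave 8, 6 and 39 peaks in replicates 1, 2 and 3. Both IgG lists gave 0, and the input lists gave 0, 0 and 2. Every OTX2 library was thus above every control library in number. This was close to given, since every OTX2 list was longer than every control list.

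**Figure D1:**
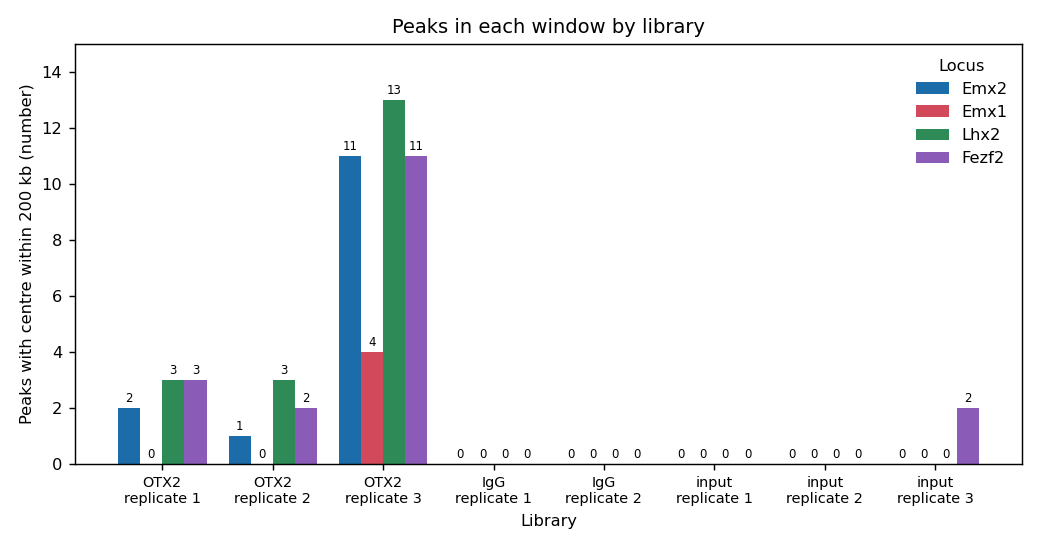
Bars give the number of peaks (vertical axis) with a centre within 200 kb of each gene position, for each of the 8 libraries (horizontal axis) and each locus (colour). The OTX2 libraries hold 8, 6 and 39 peaks over the 4 loci, no IgG library holds any, and the only control peaks are 2 of input replicate 3 at Fezf2.

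The number of peaks averaged 17.7 ± 18.5 in OTX2 libraries and 0.667 ± 1.15 in input libraries (SD, n = 3 each), a difference of 17.0 (exact two-sided permutation test of library labels, p = 0.10, the smallest that 3 against 3 libraries allow). Against IgG, with 0 in both libraries, the difference was 17.7 (exact two-sided permutation test, n = 3 and 2, p = 0.30, where the smallest possible is 0.10). With replicate 3 left out, the OTX2 libraries exceeded both input and IgG by 7 peaks on average (exact permutation test, p = 0.33, the smallest that 2 against 2 libraries allow). As a share of each library's own list the windows took 0.433%, 0.462% and 0.175% of OTX2 peaks in replicates 1, 2 and 3, against 0.851% of input replicate 3 and none of the other control lists. The mean difference from input in these shares was 0.0729 percentage points (exact permutation test, n = 3 each, p = 0.80). The input share rests on 2 peaks of a list of 235, and the 2 groups overlapped in share though not in number. The difference in number was close to given by the longer OTX2 lists.

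The windows cover 1.6 Mb, or 0.0626% of the 2558 Mb between the outermost peaks of the chromosomes. Their peak density was 5, 3.75 and 24.4 per Mb in OTX2 replicates 1, 2 and 3. Over all chromosomes it was 0.721, 0.507 and 8.73 per Mb. The ratios of window to genome were therefore 6.93, 7.39 and 2.79. The ratio was higher, at 13.7, in input replicate 3 (1.25 against 0.0911 per Mb, from 2 peaks) and 0 in the other 4 control libraries, so a ratio above that of the genome was not particular to the OTX2 libraries. The windows were centred on genes, and no set of windows around other genes was available in mm9 for comparison.

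For a plain background, the chromosomes were divided into 6413 tiles of 400 kb, the length of 1 window. Replicate 3 had a median of 3 peaks per tile (interquartile range 1 to 5). At least 13 replicate 3 peaks, the number at Lhx2, were present in 2.45% of tiles, and at least 11, the number at both Emx2 and Fezf2, in 4.58%. The 4 peaks at Emx1 were close to ordinary, since 39.8% of tiles held at least that many.

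**Figure D2:**
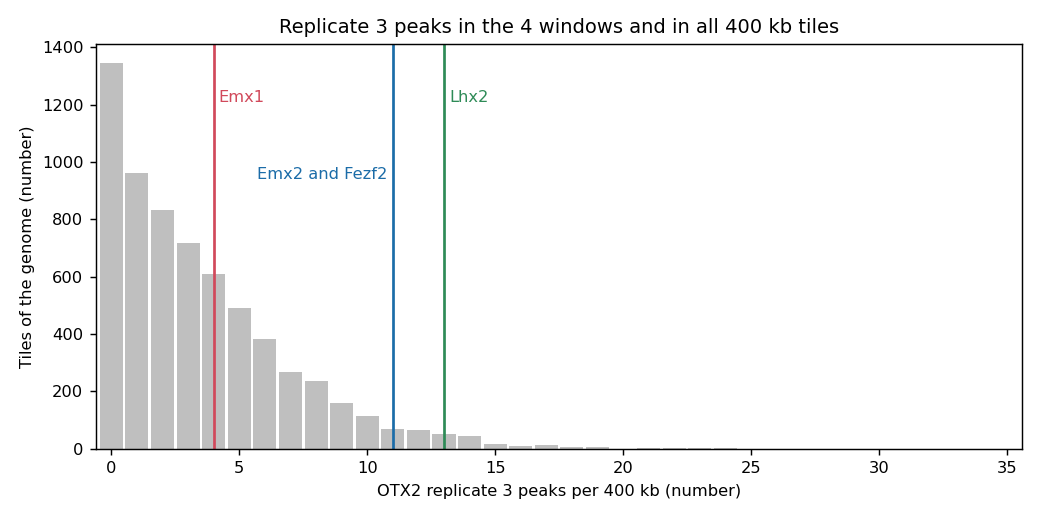
Grey bars give the number of 400 kb tiles of the genome (vertical axis) that hold a given number of OTX2 replicate 3 peaks (horizontal axis), and coloured lines mark the 4 windows. Emx1 with 4 peaks lies near the median of 3, while Emx2 and Fezf2 with 11 and Lhx2 with 13 lie in the upper tail.

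Overlapping OTX2 peaks (at least 1 bp shared) merged into 40 intervals in the windows, of which 7 were recurrent, meaning found in at least 2 OTX2 lists and free of any input or IgG peak. That is 17.5% (exact Clopper-Pearson 95% interval 7.34 to 32.8%, counting error only), against 8.61% of all 22629 merged OTX2 intervals, a value inside the interval. In all 3 lists were 6 of the 40, against 3.49% of all intervals. Lhx2 held 3 recurrent regions of 13 intervals, Emx2 2 of 11, Fezf2 2 of 12 and Emx1 0 of 4, which with 4 intervals allows a share of up to 60.2%. At least 3 recurrent regions were present in 2.03% of tiles, at least 2 in 5.88% and at least 1 in 21.5%.

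The share depended on the long list of replicate 3, which supplied 32 of the 33 intervals found in 1 list. Replicates 1 and 2 alone gave 8 intervals in the windows, 6 of them in both lists (75%, interval 34.9 to 96.8%), against 32.4% of all intervals of these 2 lists. With every OTX2 list cut to the 1298 peaks of the shortest, 5 of 9 intervals were recurrent (55.6%, 21.2 to 86.3%), against 54.0% genome-wide. The share at the loci was thus above the background for replicates 1 and 2 alone and close to it for the cut lists. Both shares rest on few intervals. Intervals are not replicates, and none of these shares was tested.

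**Figure D3:**
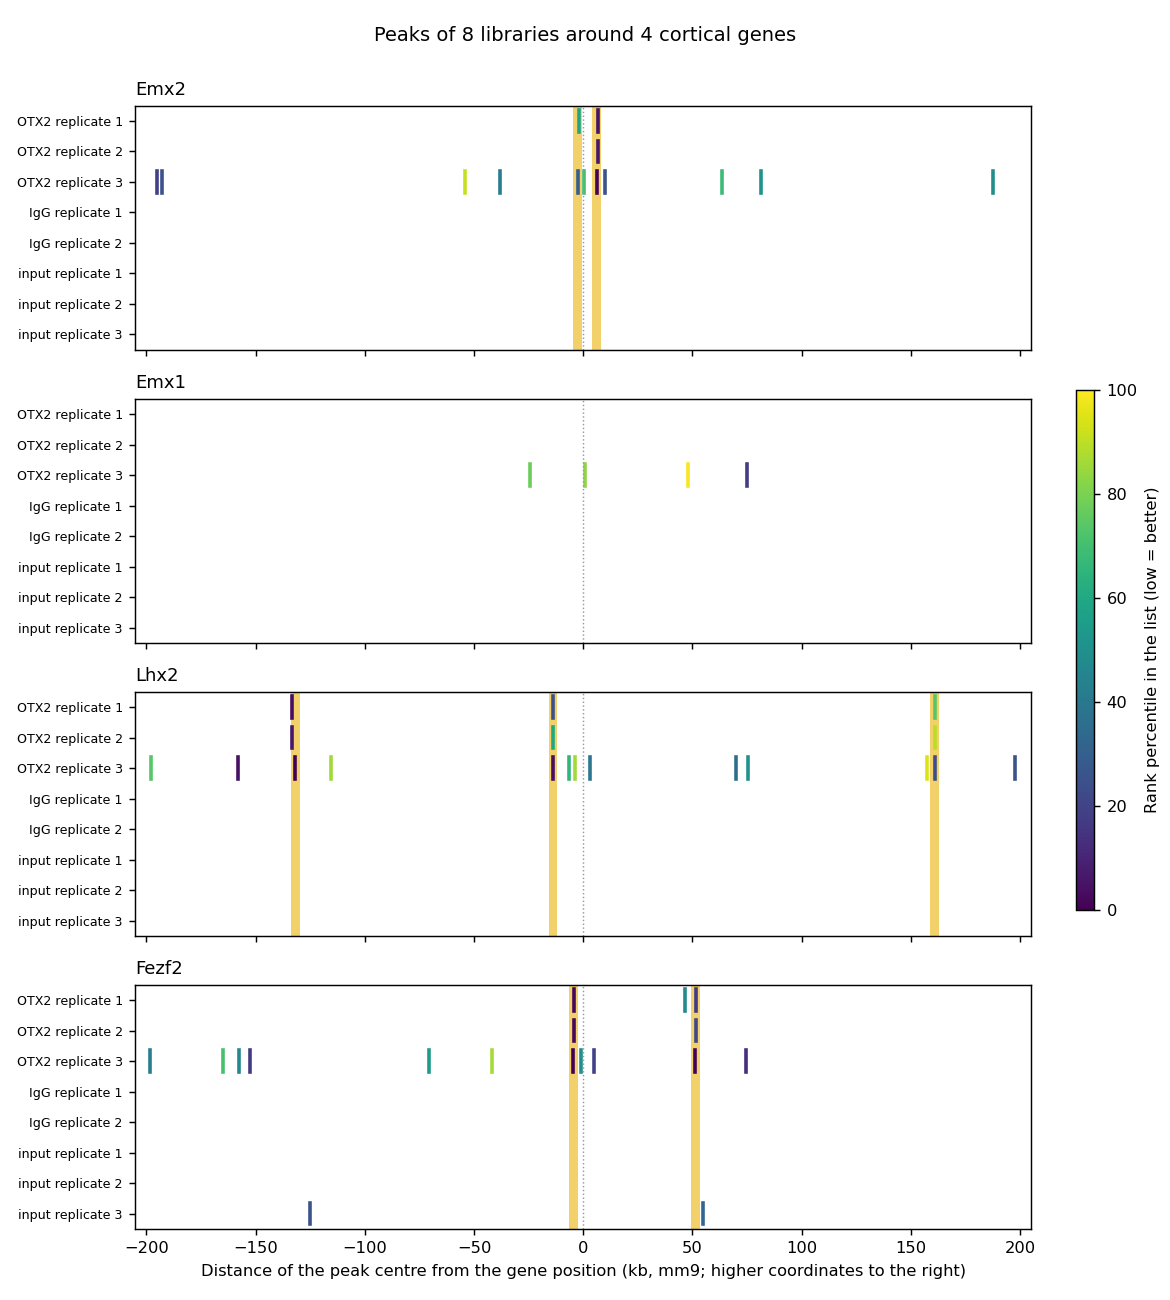
Each row is 1 library, and each tick is a peak placed by the distance of its centre from the gene position (horizontal axis, kb in mm9) and coloured by its rank percentile within its list, where dark is better-ranked. Yellow bands mark the 7 recurrent regions, 2 at Emx2, 3 at Lhx2 and 2 at Fezf2, with none at Emx1. Bands are drawn 4 kb wide and so are wider than most of the regions.

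Fezf2 carried the best-ranked region of the 4 loci. It lay 4.5 kb below the gene position (toward lower coordinates), on chr14:13169635-13171364, and was ranked 29 of 1848, 24 of 1298 and 22 of 22325 in replicates 1, 2 and 3. By mean rank percentile it was number 23 of the 789 regions found in all 3 lists. Peak widths there were 603, 443 and 1730 bp in replicates 1, 2 and 3. The 3 peak centres lay within 154 bp of one another, and all 3 peaks shared 420 bp, from 13170433 to 13170852. The 3 libraries therefore placed this site at nearly the same point.

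A second Fezf2 region lay 51.4 kb above the position, on chr14:13225065-13227743, with ranks of 308, 277 and 109. All 3 peaks shared 843 bp, and the centres lay within 166 bp. The only interval of the 4 loci that was in neither replicate 2 nor replicate 3 stood nearby, a replicate 1 peak of 275 bp 46.8 kb above the position, ranked 883. The remaining 9 Fezf2 intervals were in replicate 3 alone. The best-ranked of these, 74.5 kb above, was ranked 2810, and the nearest to the gene position, 0.8 kb below it, was ranked 11054.

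Fezf2 was also the only locus with control peaks. Input replicate 3 had 2 peaks there, of 186 bp at 125.3 kb below and 161 bp at 54.8 kb above the position, ranked 59 and 77 of 235. Neither overlapped an OTX2 peak. The first was 26.49 kb from the nearest OTX2 peak, and the second was 1.93 kb beyond the end of the replicate 3 peak at 51.4 kb. Control peaks of any library were present in 7.70% of tiles. Replicates 1 and 2 also had peaks at 51.4 kb and their inputs had none in the window. Those input lists held only 138 and 142 peaks in all, so the lack of a peak in 1 window says little.

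Lhx2 had the most recurrent regions, and none of them within 10 kb of the gene position. That position is rounded, and the gene spans 30.5 kb with 2 starts in GRCm38. Whether the region 13.8 kb below the position lies in the gene was not determined. The best-ranked Lhx2 region lay 131.9 kb below the position, on chr2:38075759-38080528, with ranks of 61, 85 and 66 in replicates 1, 2 and 3, number 61 of the 789. In replicate 3 this was a single peak of 4770 bp, the widest in the windows, and 59 of the 22325 peaks (0.264%) were at least as wide. The peaks of replicates 1 and 2, 541 and 329 bp wide, had centres 26 bp apart near its lower end, and the replicate 3 centre was off theirs by up to 1396 bp. The bases shared by all 3 ran from 38076583 to 38076911.

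The Lhx2 region nearest to the gene position lay 13.8 kb below it, on chr2:38195588-38196845, with ranks of 455, 771 and 855. Here the centres of replicates 1 and 2 were 3 bp apart. The third Lhx2 region, 160.9 kb above on chr2:38370255-38371626, was ranked 1359, 1166 and 5350, and was number 785 of the 789 by mean rank percentile. Its rank percentiles were 73.5 and 89.8 in replicates 1 and 2 and 24.0 in replicate 3, so it stood late in the first 2 lists and in the better-ranked part of the long one. Of the 10 Lhx2 intervals in replicate 3 alone, the best-ranked lay 158.0 kb below the position with rank 952, and the nearest lay 2.9 kb above with rank 8827.

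Emx2 had its 2 recurrent regions close to the gene position. The better-ranked lay 6.2 kb above the position, on chr19:59540003-59542440, with ranks of 82, 74 and 208, number 66 of the 789. The peaks were 648, 315 and 2438 bp wide in replicates 1, 2 and 3, and the replicate 2 peak lay wholly inside the other 2. The second region, 2.5 kb below the position on chr19:59531333-59533576, was in replicates 1 and 3 with ranks of 1096 and 6553 and had no peak in replicate 2. Its replicate 1 peak was 150 bp wide inside a replicate 3 peak of 2244 bp. It was the only recurrent region of the 4 loci that was missing from a list. Of the 9 Emx2 intervals in replicate 3 alone, the best-ranked lay 195.2 kb below with rank 4270, and the nearest lay 0.2 kb above with rank 15606.

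Emx1 had 4 peaks, all in replicate 3 and none overlapped in another list. The best-ranked lay 75.2 kb above the position, on chr6:85214610-85215871, with rank 4002, and the others lay 24.2 kb below, 0.6 kb above and 48.1 kb above, with ranks of 17316, 18516 and 22078. The median rank percentile of replicate 3 peaks, where low is better, was 80.3 at Emx1, against 42.1 at Emx2, 39.5 at Lhx2 and 42.1 at Fezf2. On the lower side of the 24.2 kb peak, replicate 3 had no further peak for 219.1 kb. Of the 6413 tiles of 400 kb, 1345 held no replicate 3 peak. Replicates 1 and 2 had none in the window, and whether weaker binding there was missed cannot be told from lists without depth.

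**Figure D4:**
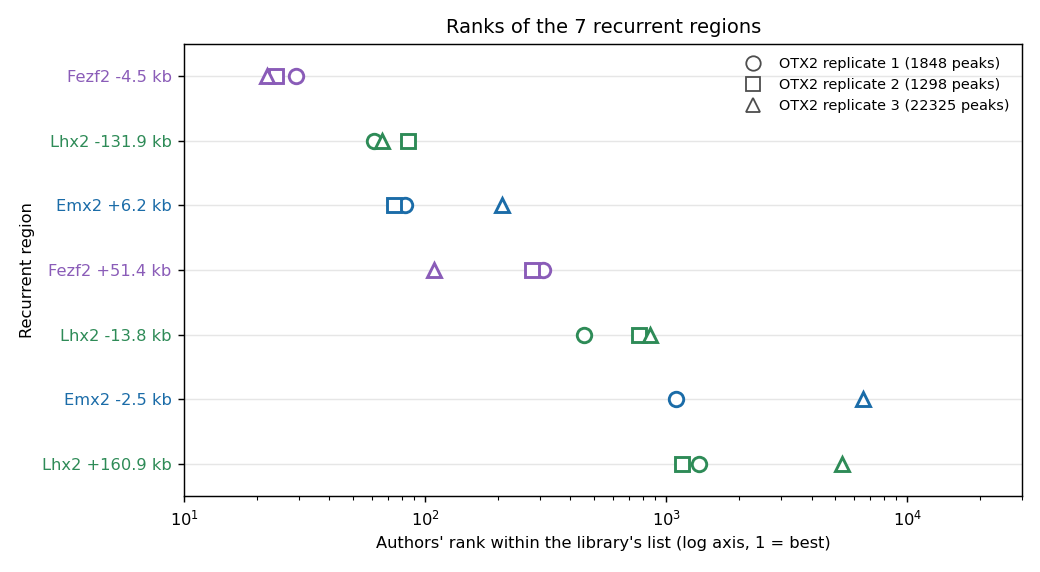
The 7 recurrent regions are listed by mean rank percentile, named by locus and signed distance from the gene position, and each symbol gives the authors' rank (horizontal log axis) in 1 OTX2 list. The Fezf2 region at -4.5 kb is ranked 29, 24 and 22, and the Emx2 region at -2.5 kb has no replicate 2 symbol. Lists differ in length, so symbols compare regions within a library and not libraries with each other.

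The order of the regions was similar in the 3 lists. The Fezf2 region at 4.5 kb came first in each, and among regions in all 3 lists the Lhx2 regions at 13.8 kb and 160.9 kb came last in each, in that order. Between them the Lhx2 region at 131.9 kb, the Emx2 region at 6.2 kb and the Fezf2 region at 51.4 kb changed places. Of the 6 regions in all 3 lists, the Fezf2 region at 4.5 kb and the Lhx2 region at 131.9 kb were within the first 100 ranks of every list, as were 6.97% of the 789.

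In replicate 3 the recurrent members were ranked between 22 and 6553, with a median of 208, and the 32 found in that list alone between 952 and 22078, with a median of 11127. Medians of these classes over the whole replicate 3 list are not given here, so the contrast cannot be called particular to the loci. Among the first 1000 ranks of replicate 3 the windows held 6 peaks, 5 of them recurrent, against 89.5% of these 1000 peaks in recurrent regions. The exception was the Lhx2 peak at 158.0 kb with rank 952. Median rank percentiles over all members were 20.6 for 8 peaks of replicate 1, 13.9 for 6 of replicate 2 and 42.1 for 39 of replicate 3, where the median of any whole list is 50. Their median widths were 408, 322 and 979 bp, against 191, 182 and 827 bp over the whole lists.

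**Figure D5:**
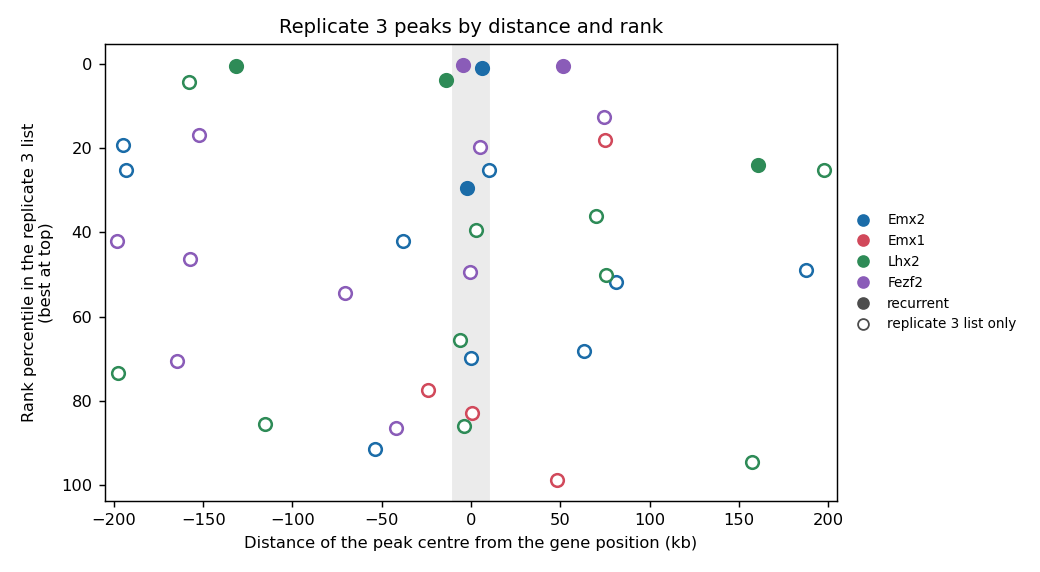
Each point is 1 of the 39 replicate 3 peaks, placed by distance from the gene position (horizontal axis, kb) and rank percentile in that list (vertical axis, best at the top). Filled points are recurrent and open points are in replicate 3 alone, and the grey band marks 10 kb on either side, which holds 11 of the 39 peaks.

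Peaks were denser next to the genes than farther out. Within 10 kb of the positions, which is 5% of the windows, lay 3 of 8 peaks of replicate 1 (37.5%), 2 of 6 of replicate 2 (33.3%) and 11 of 39 of replicate 3 (28.2%). Emx2 gave 4 of these 11 replicate 3 peaks, Lhx2 and Fezf2 3 each and Emx1 1. In replicate 3 the density was 138 per Mb within 10 kb, 15.6 per Mb from 10 to 50 kb, 22.5 per Mb from 50 to 100 kb and 17.5 per Mb from 100 to 200 kb. The recurrent regions within 10 kb were both Emx2 regions and the Fezf2 region at 4.5 kb. The distance of 10 kb was chosen after seeing the peaks, the gene positions are rounded, and the genes themselves span 6.7 kb for Emx2, 16.5 kb for Emx1, 30.5 kb for Lhx2 and 7.8 kb for Fezf2 in GRCm38, so peaks cannot be called promoter, intron or exon peaks here. Whether other genes show the same excess was not tested.

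Over the genome, 1345 of the 6413 tiles of 400 kb held no replicate 3 peak, so empty stretches were not particular to these loci. Farther out in the windows, replicate 3 also had stretches without peaks. Counted up to the limits of the window, the longest was 175.8 kb at Emx1, from the lower limit to the peak at 24.2 kb, 139.0 kb at Emx2, 125.5 kb at Fezf2, from the peak at 74.5 kb to the upper limit, and 101.7 kb at Lhx2. The outermost peaks inside the limit of 200 kb were those of replicate 3 at 195.2 and 187.8 kb for Emx2, 24.2 and 75.2 kb for Emx1, 197.7 and 197.6 kb for Lhx2 and 198.2 and 74.5 kb for Fezf2, below and above the position. The first peaks outside it lay at 265.0 and 220.2 kb for Emx2, 243.3 and 219.2 kb for Emx1, 210.1 and 230.4 kb for Lhx2 and 256.0 and 253.0 kb for Fezf2. At Lhx2 those first outside peaks belonged to recurrent regions, at 210.3 kb below with ranks of 41, 107 and 60 and at 231.0 kb above with ranks of 273, 358 and 218. At Emx2 a region 325.3 kb below was ranked 115, 29 and 35. Up to 500 kb from the positions there were 6 recurrent regions beyond the limit, 3 around Lhx2, 2 around Emx2, 1 around Fezf2 and none around Emx1.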

How the data were processed

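ChIP-seq peak lists of 3 OTX2, 2 IgG and 3 input libraries of E12.5 mouse subpallium were used, 1 list per library as deposited by the authors. BWA, MACS 1.4 and mm9 appear in the submitters' processing notes, without their roles. Not given in the sources used here are the peak threshold, the control chosen for each library and what the rank orders by. Groups and replicate numbers came from sample titles. The labels describe 3 independent experiments and do not say whether their embryos came from separate litters. The p-values are shares of the arrangements of labels or signs of these libraries, and do not measure the spread between litters.

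Starts were turned to 1-based coordinates. Peaks were merged in Python 3.11.15 (numpy 2.4.6, scipy 1.17.1), after tests on simulated lists, and the count of merged intervals was checked with bedtools 2.31.1 (22629 in both). Library counts were compared by exact two-sided permutation tests. Shares carry exact Clopper-Pearson 95% intervals. Every locus and every recurrent region is named, and of intervals in 1 list the best-ranked and the nearest to the gene. The loci, rules and alternatives were chosen with earlier results of these data known. Coordinates were not converted between mm9 and GRCm38.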

Additional observations from a re-analysis of the deposited data

How the results depend on the processing

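Mean values of OTX2 stayed above those of input and IgG in all alternatives run. Differences in mean peak number were 5.33 to 40.7 against input and 5.33 to 40.8 against IgG over the other windows and list lengths. No exact permutation test passed 0.05, which none of these designs can reach. Every OTX2 list, also when cut, was longer than every control list, so a higher number was close to given. As a share of each list, the mean difference was 0.0729 percentage points against input (exact permutation test, p = 0.80) and 0.357 against IgG (exact permutation test, p = 0.20). The largest single share was the 0.851% of input replicate 3. Leaving out 1 replicate number gave differences in mean peak number of 7 to 22.5 against input and 7 to 23.5 against IgG. With the replicate number as a block (sign-flip of paired differences) the difference was 17.0 against input (exact permutation test, n = 3 pairs, p = 0.25, the smallest possible) and 7 against IgG (exact, n = 2 pairs, p = 0.50, the smallest possible), and it changed no call. The 7 recurrent regions became 4 within 50 kb, 13 within 500 kb and 3 within 10 kb (the last distance was chosen after seeing the data), and 6 to 7 when 1 OTX2 replicate was left out. The share of recurrent intervals moved to 55.6% with lists cut to the shortest, and was 15.4 to 75% when 1 replicate was left out, highest without replicate 3. Lhx2 had 1 recurrent region within 100 kb, 1 within 50 kb, 6 within 500 kb and 0 within 10 kb. Fezf2 had 1 within 50 kb and 1 within 10 kb. Emx2 had 4 within 500 kb and 1 each with the better-ranked 50% of lists, with lists cut to the shortest, with 200 bp at peak centres and with all 3 lists required. It had 1 to 2 when 1 replicate was left out, the Emx2 region at 2.5 kb needing both replicates 1 and 3. Emx1 had 0 in every alternative run. The other 96 of 114 values kept their call, or stayed near the main value or inside its interval. For OTX2 against input or IgG, where no test could reach 0.05, a call could change only by a reversed direction. Those kept calls therefore say little about stability. Depth is unknown, so what a list omits cannot be told from what is unbound.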
